A study of Homo sapiens with 6 samples.

Results

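The 7 genes described here encode cell surface proteins that serve as markers of neuroblastoma or as targets of antibodies and engineered T cells against it: GPC2, CD276, DLK1, L1CAM, NCAM1, NRCAM and THY1. They were chosen by name, with earlier results of these data known, and all 7 were found among the 35130 gene names of each library. The libraries came from SK-N-BE(2), a human neuroblastoma line with amplified MYCN that was derived from bone marrow, so each value describes cells of 1 line. The control group was given the solvent DMSO and the other group 1 µM NEN, both for 24 h in 10 cm dishes, with 3 libraries per group that the labels call biological replicates. The labels spell NEN only as an abbreviation. Work on neuroblastoma uses it for niclosamide ethanolamine, a mitochondrial uncoupler, which is taken here as background. The comparison asks whether 24 h of NEN goes with other mRNA levels of these surface proteins.

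Neuroblastoma arises from sympathoadrenal precursors of the neural crest and keeps many surface proteins of developing neurons. NCAM1 (CD56), L1CAM (CD171) and NRCAM are adhesion molecules with immunoglobulin-like and fibronectin-like domains that act in axon growth and bundling. GPC2 is a glypican, a heparan sulfate proteoglycan of the embryonic nervous system, and THY1 (CD90) is a small immunoglobulin-like protein. Both are held in the membrane by a glycosylphosphatidylinositol (GPI) anchor. DLK1 is a transmembrane protein with EGF-like repeats, related to the ligands of Notch and expressed in chromaffin cells. CD276 (B7-H3) belongs to the B7 family of immune checkpoint ligands.

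NEN-treated cells had more GPC2 and NRCAM mRNA and less THY1 mRNA than DMSO-treated cells. GPC2 rose from 2.62 ± 0.64 to 8.78 ± 0.76 TPM (mean ± SD, n = 3), the largest change of the 7, and NRCAM rose from 162.2 ± 9.2 to 238.2 ± 21.5 TPM. THY1 fell from 366.3 ± 22.4 to 287.9 ± 9.3 TPM. DLK1 and L1CAM passed the same test with rises of 0.17 ± 0.05 each on the log2 scale, but these calls were lost under many of the alternatives described further on. CD276 and NCAM1 did not pass it. TPM is an abundance scaled by transcript length and library total, so TPM levels can be compared between genes. Changes were taken as NEN less DMSO in units of log2(TPM + 1) and are followed by ± SE. The adjusted p-values come from limma and cover all 12576 genes tested. This scale understates the change of low genes, among them GPC2.

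In all, 5 of the 7 genes passed an adjusted p of 0.05, where 30.0% of all tested genes did. Of these, 4 rose and 1 fell, against 13.5% of all tested genes that rose and 16.5% that fell. The median change of the 7 was 0.17, and that of all tested genes was -0.02. For the same 5 genes the NEN libraries lay entirely on one side of the DMSO libraries, which held for 46.8% of all tested genes, higher in NEN for 21.8% (here 4 antigens) and lower for 25.0% (here 1). Changes of the size seen for DLK1 and L1CAM were common in these data. Counting both directions, 65.7% and 66.1% of tested genes changed by more. Ranked by rise alone, DLK1 was number 3872 and L1CAM number 3885 of the 12576 tested genes. A change larger than that of GPC2 was found for 0.954% of tested genes, larger than that of NRCAM for 19.0%, and larger than that of THY1 for 39.0%.

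Summed TPM was between 932109 and 933500 in the DMSO libraries and between 929054 and 929189 in the NEN libraries. Since TPM is scaled to the library total, such sums say little about how alike libraries are. Depth is unknown, because TPM keeps no counts. Correlations of log2 levels between libraries of 1 group were at least 0.976, and between groups at most 0.965. No library stood apart as a whole. The labels call them biological replicates without saying that they came from separate cultures or days, so p-values measure the spread between these libraries, which may be technical. By the GENCODE annotation, GPC2 and NRCAM lie on chromosome 7, NCAM1 and THY1 on chromosome 11, DLK1 on 14, CD276 on 15 and L1CAM on X. Exons of L1CAM, NCAM1 and THY1 overlap those of antisense genes, and exons of L1CAM also overlap those of a gene on the same strand. The strand of counting is not stated, and reads of such pairs cannot be told apart. In bulk RNA, fewer cells with a transcript and less transcript per cell cannot be told apart.

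The 7 mRNAs covered a wide range of levels, from 2.62 TPM for GPC2 to 1848 TPM for DLK1 in DMSO-treated cells. DLK1 ranked number 72 of 12576 tested genes, so 99.4% of them lay lower. THY1 ranked 337 and L1CAM 349, with 97.3% and 97.2% of tested genes lower. NRCAM and NCAM1 followed, above 93.4% and 92.9% of tested genes, and then CD276, above 80.3%. GPC2 was the only antigen of the 7 in the lower part of the range, above 12.7% of tested genes in DMSO and 32.9% in NEN.

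**Figure D1:**
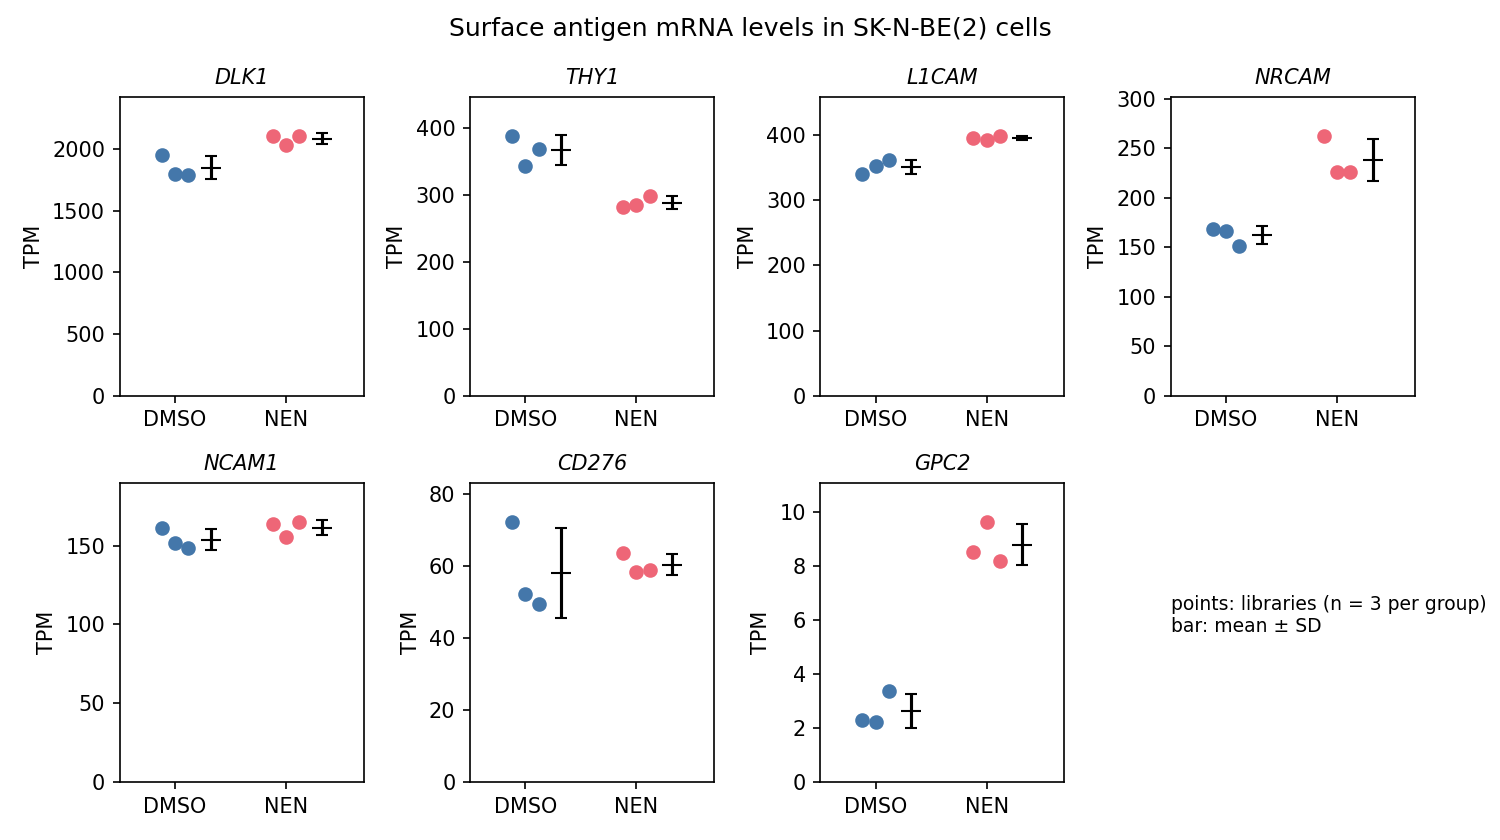
TPM (vertical axis, from 0) of each antigen in the 3 DMSO (blue) and 3 NEN (red) libraries, with the mean ± SD beside each group; panels run from the highest to the lowest DMSO level. The groups do not overlap for DLK1, THY1, L1CAM, NRCAM and GPC2, and overlap for NCAM1 and CD276, where DMSO replicate 1 of CD276 lies above the other libraries at 72.3 TPM.

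In DMSO the order of levels was DLK1, THY1, L1CAM, NRCAM, NCAM1, CD276 and GPC2. THY1 and L1CAM were neighbours whose libraries overlapped there, and so were NRCAM and NCAM1. In NEN the order was DLK1, L1CAM, THY1, NRCAM, NCAM1, CD276 and GPC2, and no neighbours overlapped. The L1CAM to THY1 ratio within a library was 0.962 ± 0.076 in DMSO and 1.38 ± 0.034 in NEN (n = 3). The NRCAM to NCAM1 ratio was 1.05 ± 0.038 and 1.48 ± 0.12. Each of these ratios was higher in every NEN library than in every DMSO library. An exact two-sided permutation test gave p = 0.1 for each, the smallest that 3 against 3 libraries can give. For L1CAM and THY1 this outcome was fixed in advance, because L1CAM rose and THY1 fell without overlap between the groups. The pairs were picked after their levels were seen.

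**Figure D2:**
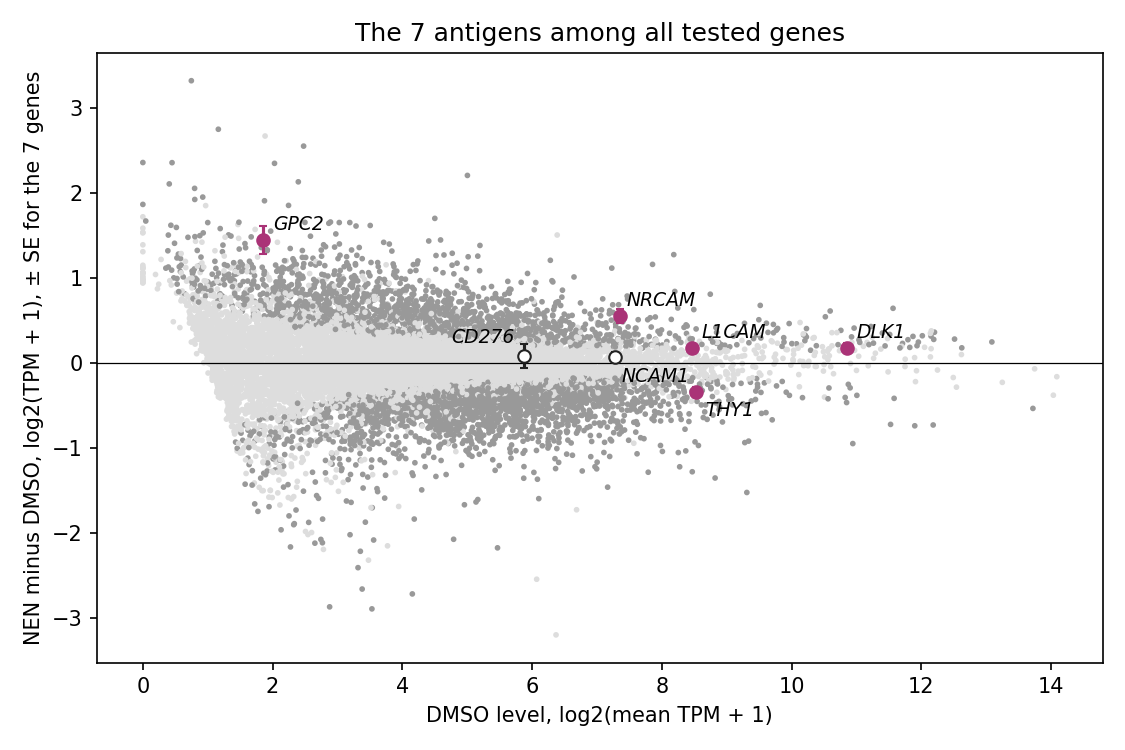
Each tested gene by its DMSO level, log2(mean TPM + 1), and its change with NEN on the log2(TPM + 1) scale, with genes past the threshold in darker grey; the 7 antigens are drawn with ± SE, filled where past the threshold. GPC2, at 1.44, lies near the upper edge at a low level, while DLK1 and L1CAM, at 0.17, lie close to 0 at high levels.

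GPC2, the embryonic glypican, was low in all 3 DMSO libraries, with 2.29, 2.23 and 3.36 TPM, and higher in all 3 NEN libraries, with 8.53, 9.63 and 8.17 TPM. The lowest NEN library was 2.43 times the highest DMSO library. The rise was 1.44 ± 0.17 on the log2 scale with an adjusted p of 0.00133 in limma, and the ratio of mean TPM was 3.35. The size of the log2 change depends on the pseudocount at this level. It was 1.73 with a pseudocount of 0.1 TPM and 0.855 with 5 TPM, and it passed the threshold under both.

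Promoter sequences were found in the RefSeq table, build GRCh38.p14, for 4 of the 7 genes: GPC2, NRCAM, CD276 and L1CAM. The files name hg19, so these coordinates do not apply to that build. The stretches before the start sites of GPC2 and of the most upstream listed start of NRCAM are shown because these genes rose under every alternative tried. They run 5′ to 3′ on the gene's strand up to the base before the start, end upstream where an exon annotated by GENCODE release 29 begins, and cover chr7:100177382-100177562 (minus strand) and chr7:108456437-108456669 (minus strand). Capitals mark matches on either strand to the GC box GGGCGG and the CCAAT box CCAAT.
GPC2: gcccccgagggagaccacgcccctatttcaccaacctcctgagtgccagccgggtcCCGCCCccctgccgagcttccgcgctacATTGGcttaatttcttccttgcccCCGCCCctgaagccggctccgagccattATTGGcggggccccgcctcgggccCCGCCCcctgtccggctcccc
NRCAM: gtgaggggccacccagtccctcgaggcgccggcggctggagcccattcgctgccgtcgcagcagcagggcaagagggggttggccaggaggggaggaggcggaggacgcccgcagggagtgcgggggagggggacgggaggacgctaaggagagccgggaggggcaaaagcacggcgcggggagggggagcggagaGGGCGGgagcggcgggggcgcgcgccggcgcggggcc

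In the 250 bases before the GPC2 start, GGGCGG was found 3 times and CCAAT 2 times on either strand, with no overlap between them. The NRCAM window held GGGCGG 2 times, of which 1 lies in the part shown, and CCAAT 0 times. The windows of the other 2 listed NRCAM starts each held GGGCGG 0 times and CCAAT 1 time. Of 35116 promoter windows of 250 bases in the table, 42.6% held GGGCGG and 32.0% held CCAAT. Among the 13473 windows of genes tested here these shares were 63.8% and 33.4%. The E-box CACGTG, to which MYC-family proteins bind, was found in 6.34% of all windows, in 8.35% of those of tested genes and in no window of GPC2 or NRCAM. These are matches of letters in a window.

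Upstream of GPC2 the stretch shown ends at the first exon of STAG3, a meiotic cohesin gene read in the opposite direction. STAG3 had 2.78, 4.82 and 3.10 TPM in DMSO and 1.89, 2.91 and 2.60 TPM in NEN, with a change of -0.38 ± 0.23 that did not pass the threshold (limma adjusted p = 0.239). GAL3ST4, on the other side of GPC2, was under 0.5 TPM in every library. Both neighbours were looked up after the value of GPC2 was seen.

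The other glypicans of these cells were mainly GPC1 and GPC6. GPC1 had 29.6 ± 0.6 TPM in DMSO and 34.5 ± 1.3 TPM in NEN, a change of 0.21 ± 0.07 (limma adjusted p = 0.058) that turned to -0.064 once corrected for transcript length and GC content. GPC6 had 9.62 ± 2.15 and 12.8 ± 1.5 TPM (limma adjusted p = 0.123). GPC3, GPC4 and GPC5 stayed under 0.2 TPM in each library. GPC2 lay below GPC1 and GPC6 in every library of both groups. The difference between the changes of GPC2 and the other glypicans was not tested.

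Glypicans carry heparan sulfate chains, and 20 of the 26 genes of the list of glypicans and heparan sulfate enzymes were tested. Leaving out GPC2, 1 of 19 rose and 3 fell, with a median change of 0.09. Among all tested genes 13.5% rose and 16.5% fell, and the list counts given further on stand beside these same shares. HS6ST1, which adds sulfate to the 6-O position of glucosamine, fell from 97.4 ± 0.5 to 45.3 ± 1.9 TPM (-1.09 ± 0.06, limma adjusted p = 0.000215). SULF2, which removes such sulfate outside the cell, fell from 219.2 ± 15.5 to 173.6 ± 17.1 TPM. This call was lost without DMSO replicate 1 or 2 or NEN replicate 2 or 3 (-0.36 to -0.26). It held in 10 of the 16 alternatives described further on. B3GALT6, a galactosyltransferase of the linker that joins the chain to the core protein, fell from 32.8 ± 3.4 to 22.5 ± 0.5 TPM. The rise was that of NOTUM, a hydrolase that acts on Wnt proteins and can release glypicans, from 3.34 ± 1.63 to 7.37 ± 1.69 TPM (limma adjusted p = 0.0468). When libraries were left out in turn, that call held only without DMSO replicate 2, and the change lay between 0.670 and 1.25.

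THY1, which like GPC2 has a GPI anchor, went the opposite way to GPC2. It had 388.1, 343.3 and 367.5 TPM in DMSO and 281.2, 283.9 and 298.6 TPM in NEN. Every NEN library lay below every DMSO library. The change was -0.345 ± 0.06 on the log2 scale (limma adjusted p = 0.00599), and THY1 in NEN was at 0.786 of its DMSO mean. NECTIN1, the next protein-coding gene on one side of THY1 on chromosome 11, on the same strand and listed under its older symbol PVRL1, fell from 193.7 ± 15.5 to 119.2 ± 4.3 TPM (-0.69 ± 0.07, limma adjusted p = 0.000875). USP2, on the other side, had 3.74 ± 1.04 and 6.54 ± 0.61 TPM, a change of 0.69 ± 0.18 (limma adjusted p = 0.0277) that passed the threshold only without DMSO replicate 2 when libraries were left out (0.59 to 0.86). These neighbours were looked up after the value of THY1 was seen.

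THY1 is also made by fibroblasts, so the fibroblast and stromal markers are given beside it. Of the 10 listed, 6 were tested, 2 rose and 0 fell, with a median change of -0.19. COL3A1, FAP and POSTN were under 1 TPM in every library. COL1A1 reached at most 4.47 TPM, COL1A2 3.54, DCN 3.31, PDGFRA 2.51 and LUM 1.30 TPM. The summed TPM of the list was between 24.9 and 28.9 in DMSO and between 37.9 and 43.9 in NEN. The other 4 tested markers had changes of -0.05 (COL1A1), -0.49 (COL1A2), -0.34 (DCN) and -0.46 (PDGFRA) and did not pass the threshold. The 2 that rose were PDGFRB, a growth factor receptor, from 10.15 ± 2.13 to 22.04 ± 2.54 TPM, and ACTA2, smooth muscle actin, from 6.12 ± 0.07 to 10.9 ± 0.7 TPM. The part of such cells in the THY1 result was not tested.

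The GPI anchor that GPC2 and THY1 share is built by a chain of enzymes, 28 of whose 29 genes were tested. Of these, 2 rose and 3 fell, with a median of -0.06. DPM3 rose by 0.69 ± 0.09 and DPM1 fell by 0.47 ± 0.06, although both encode subunits of the enzyme that makes dolichol phosphate mannose. The change of DPM1 was -0.27 after the length and GC correction with the longest transcript (limma adjusted p = 0.0128). PIGO, an ethanolamine phosphate transferase, rose from 11.9 ± 0.007 to 20.5 ± 3.6 TPM. PIGA, which takes part in the first step, fell from 5.46 ± 1.62 to 2.70 ± 0.45 TPM. When libraries were left out in turn, that call held only without DMSO replicate 3 (-0.97 to -0.60 over the 6). PIGC, of the same enzyme complex, fell by 0.36 ± 0.11. The PIGC call was lost without DMSO replicate 2 or 3 or NEN replicate 2 or 3 (-0.38 to -0.27). It held in 6 of the 16 alternatives. In a further list of 34 GPI-anchored proteins other than GPC2 and THY1, 20 were tested, 5 rose and 1 fell, with a median of 0.22. Of all tested genes, 13.5% rose and 16.5% fell. CD55, an inhibitor of complement, rose from 2.55 ± 0.15 to 8.09 ± 0.96 TPM, starting from nearly the same level as GPC2. EFNA1 and EFNA3, ephrin ligands, rose by 1.04 ± 0.12 and 1.65 ± 0.25, and RTN4R, the Nogo receptor, by 1.17 ± 0.13. As for GPC2, the changes of low genes shrank with a pseudocount of 5 TPM, to 0.792 for CD55 and 0.766 for EFNA3. The one that fell was GFRA2, a co-receptor for neurturin, from 24.98 ± 1.47 to 13.6 ± 2.7 TPM.

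NRCAM, an adhesion molecule of axons and nodes of Ranvier, had 168.6, 166.3 and 151.6 TPM in DMSO. Its NEN libraries were at 262.9, 225.7 and 225.8 TPM, all above the DMSO libraries, with NEN replicate 1 the highest. The rise was 0.55 ± 0.08 on the log2 scale (limma adjusted p = 0.00282), a ratio of means of 1.47. Without NEN replicate 1 it was 0.476 and still past the threshold.

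L1CAM, the founding member of the same family, had 340.5, 352.2 and 361.3 TPM in DMSO and 395.2, 392.9 and 399.5 TPM in NEN. Every NEN library lay above every DMSO library, and the lowest was 1.09 times the highest DMSO library. The rise was 0.17 ± 0.05 (limma adjusted p = 0.03), a ratio of means of 1.13. The call was lost without DMSO replicate 2 or any of the NEN replicates (changes of 0.17 to 0.18), with the replicate block (adjusted p = 0.0643) and with plain limma settings (adjusted p = 0.113). Once the dependence on transcript length and GC content had been taken out of each library, the change was 0.03 with the longest transcript (limma adjusted p = 0.604) and 0.02 with the median transcript (adjusted p = 0.721). The longest L1CAM transcript has 5141 bases and 60.0% GC, that of NRCAM 6685 bases and 41.9% GC.

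Of the other L1 family genes, NFASC, neurofascin, fell from 43.2 ± 2.6 to 33.1 ± 2.8 TPM (-0.38 ± 0.09, limma adjusted p = 0.0176), a call lost when DMSO replicate 2 or NEN replicate 2 or 3 was left out (-0.36 to -0.33). CHL1 was at or near 0 in every library and was not tested. Among 19 contactins, ankyrins and other partners of L1 proteins and NCAM1, 14 were tested, 1 rose and 1 fell, with a median of 0.02. ANK3, ankyrin-G, which ties L1 family proteins to the membrane skeleton, rose from 3.49 ± 0.53 to 7.42 ± 1.59 TPM (0.90 ± 0.18). ANK1 fell by 0.33 ± 0.10, a call lost on leaving out any library (-0.36 to -0.29) and held in 7 of the 16 alternatives.

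**Figure D3:**
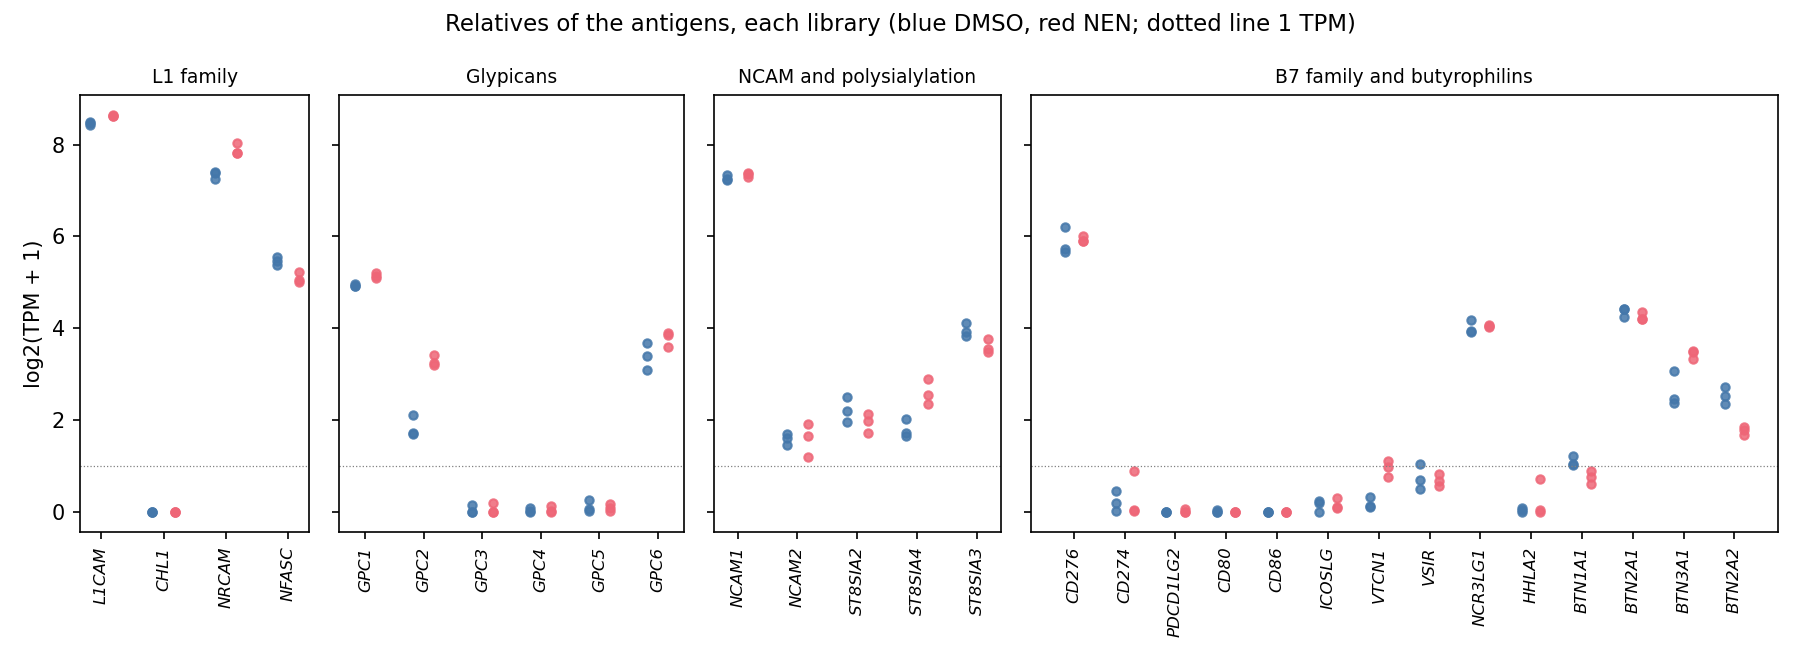
log2(TPM + 1) of the relatives of 4 antigens in each DMSO (blue) and NEN (red) library, with a dotted line at 1 TPM. NRCAM rises while NFASC falls and CHL1 stays near 0, GPC2 rises toward the level of GPC6, and CD276 is the highest gene of its panel in both groups.

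NCAM1, the CD56 antigen used to find neuroblastoma cells in bone marrow, had 161.4, 151.6 and 148.3 TPM in DMSO and 163.4, 155.7 and 165.1 TPM in NEN. The groups overlapped. The change was 0.07 ± 0.06 (limma adjusted p = 0.39), with a 95% interval from -0.06 to 0.20 on the log2 scale. It did not pass the threshold under any of 16 alternatives. NCAM2, its relative, was at 2.02 ± 0.25 and 2.08 ± 0.74 TPM. PTS, the next protein-coding gene on one side of NCAM1, which makes an enzyme of tetrahydrobiopterin synthesis, fell from 65.0 ± 5.1 to 45.6 ± 4.0 TPM (-0.50 ± 0.09, limma adjusted p = 0.0069). After the length and GC correction its change was -0.32 with the longest transcript and -0.33 with the median transcript, where the call was lost (adjusted p = 0.0652). TTC12, on the other side, had 20.6 ± 2.3 and 14.9 ± 2.9 TPM, a change of -0.46 ± 0.16 that did not pass the threshold (limma adjusted p = 0.0632). These neighbours were looked up after the value of NCAM1 was seen.

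NCAM1 can carry polysialic acid, which weakens adhesion. Of the 9 other genes in the list of NCAM relatives and polysialic acid synthesis, 1 rose and 0 fell. It was ST8SIA4, a polysialyltransferase, from 2.51 ± 0.49 to 5.14 ± 1.20 TPM (0.80 ± 0.20, limma adjusted p = 0.0216). This call was lost without DMSO replicate 1 or 3 or NEN replicate 1 or 3 (0.65 to 0.83), and with the replicate block (adjusted p = 0.0579). ST8SIA2, the other polysialyltransferase of NCAM1, had 3.72 ± 0.91 and 2.89 ± 0.54 TPM (limma adjusted p = 0.349).

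DLK1 was the most abundant of the 7 in both groups. It had 1953, 1798 and 1791 TPM in DMSO and 2107, 2034 and 2108 TPM in NEN. The groups did not overlap, but the lowest NEN library was only 1.04 times the highest DMSO library. The rise was 0.17 ± 0.05 (limma adjusted p = 0.0434). Leaving out 1 library at a time, the call held only without DMSO replicate 1, and the change lay between 0.15 and 0.21. It was lost with the replicate block (adjusted p = 0.069), and quantile normalization gave a change of 0.05 (adjusted p = 0.589). The length and GC correction gave 0.13 (adjusted p = 0.0909) with the longest transcript and 0.03 (adjusted p = 0.786) with the median transcript.

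DLK2, the relative of DLK1, and RTL1 and DIO3, its imprinted neighbours, averaged under 1 TPM and were not tested. MEG3, MEG8 and MEG9 were not matched to a listed name and are not analysed here. BEGAIN, the next protein-coding gene on the other side, was lower in NEN, with 19.99 ± 4.55 and 12.4 ± 0.6 TPM (-0.63 ± 0.15, limma adjusted p = 0.0209). This call was lost without any 1 of the NEN replicates (-0.66 to -0.60).

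The outer parts of DLK1, L1CAM and other surface proteins can be cut off by proteases such as ADAM10 and ADAM17. Of 20 genes for such proteases, gamma-secretase and their inhibitors, 15 were tested, 3 rose and 0 fell, with a median of 0.09. ADAM10 and ADAM17 did not pass the threshold, with 73.3 and 22.4 TPM in DMSO and 85.2 and 23.1 TPM in NEN. TIMP2, a metalloprotease inhibitor, rose from 81.1 ± 8.7 to 111.1 ± 3.5 TPM and NCSTN, the nicastrin subunit of gamma-secretase, from 65.6 ± 0.1 to 84.8 ± 8.2 TPM. ADAM15 rose by 0.39 ± 0.10, a call lost without DMSO replicate 1 or 2 or NEN replicate 1 or 3 (0.295 to 0.395). The call held in 7 of the 16 alternatives, and the ADAM15 change was 0.20 after the length and GC correction.

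CD276 had 72.3, 52.3 and 49.4 TPM in DMSO and 63.7, 58.4 and 58.8 TPM in NEN. DMSO replicate 1 lay above all NEN libraries and the other DMSO libraries below them. The change was 0.08 ± 0.14 (limma adjusted p = 0.721), with a 95% interval from -0.25 to 0.40 on the log2 scale, the widest of the 7 apart from that of GPC2. Without DMSO replicate 1 it was 0.24 with an adjusted p of 0.0499, and without DMSO replicate 3 it was -0.03.

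CD276 had the highest mean of the B7 list in both groups. CD274 (PD-L1), PDCD1LG2, CD80, CD86, ICOSLG and HHLA2 were under 1 TPM in every library, and CD86 was listed at 0 in all of them. NCR3LG1 (B7-H6), the ligand of an activating receptor of natural killer cells, had 15.2 ± 1.6 and 15.6 ± 0.1 TPM. Of the 14 genes of the B7 and butyrophilin list 5 were tested, 1 rose and 1 fell, with a median of 0.04. BTN2A2 fell from 4.82 ± 0.77 to 2.42 ± 0.21 TPM. BTN3A1 rose from 5.35 ± 1.78 to 9.85 ± 0.74 TPM, a call lost without DMSO replicate 1 or 3 or NEN replicate 1 or 2 (0.67 to 0.79). The BTN3A1 call held in 11 of the 16 alternatives.

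Further surface proteins that have been studied in neuroblastoma went both ways, with 5 of 21 tested genes up and 5 down and a median of 0.00. CD47, which signals to macrophages, fell from 113.3 ± 5.3 to 81.1 ± 2.4 TPM. TFRC, the transferrin receptor, fell by 0.44 ± 0.06 and ALCAM, an adhesion molecule, by 0.43 ± 0.06. CXCR4, a chemokine receptor, fell from 8.57 ± 1.54 to 4.25 ± 0.36 TPM. ALK, a receptor kinase mutated in some neuroblastomas, fell from 6.28 ± 0.42 to 4.004 ± 0.197 TPM. The ALK call was lost without DMSO replicate 2 or NEN replicate 2 (-0.49 and -0.51) and with the replicate block (limma adjusted p = 0.0542). The rises included DLL3, a Notch ligand, by 0.42 ± 0.08, which became 0.18 after the length and GC correction (limma adjusted p = 0.0685), and PTK7 by 0.36 ± 0.07, which became 0.22 (adjusted p = 0.0414). CD47 went to -0.30 (adjusted p = 0.0138) with the median transcript in that correction. BSG, basigin, rose from 703.7 ± 14.6 to 882.9 ± 21.1 TPM, although its change became 0.14 (limma adjusted p = 0.0897) after correction for length and GC content of the longest transcript. SLC6A2, the noradrenaline transporter that takes up the imaging agent MIBG, had 381.9 ± 16.7 and 382.4 ± 3.4 TPM, close to L1CAM in level.

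**Figure D4:**
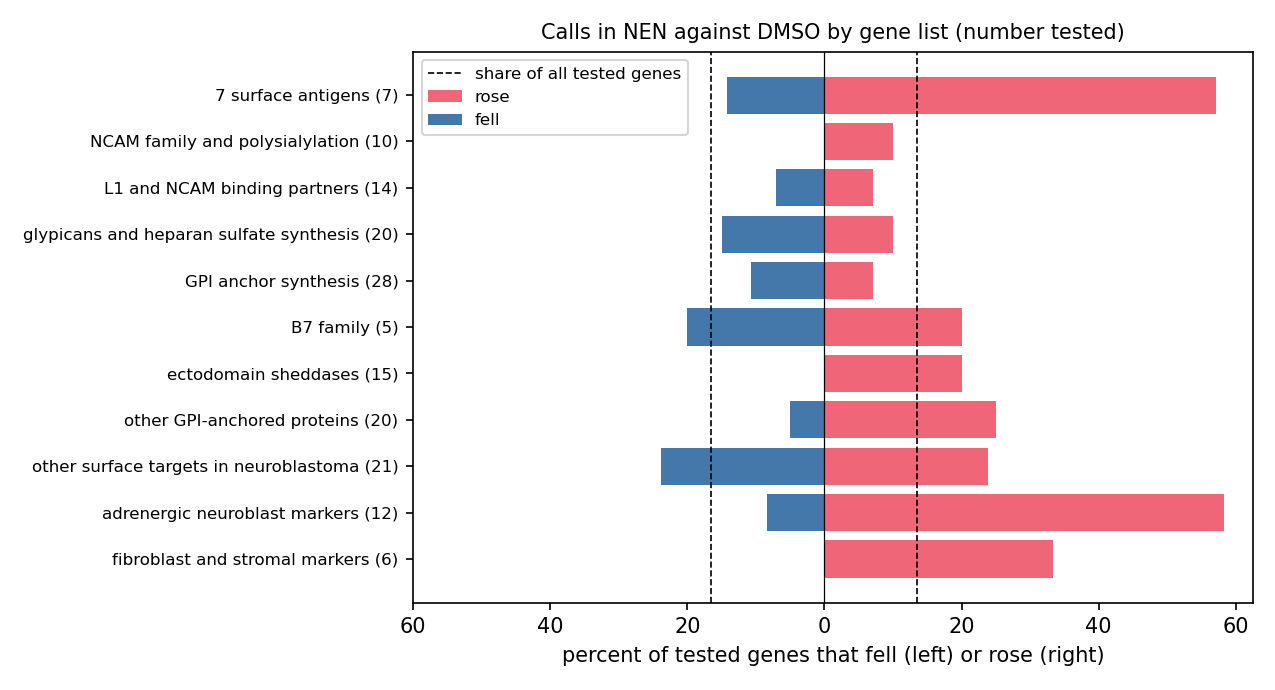
Share of the tested genes of each list that fell (left) or rose (right) with NEN, for lists with at least 5 tested genes, with the number tested in brackets and dashed lines at the shares among all tested genes, 16.5% and 13.5%. The bar of the 7 antigens rests on 4 genes that rose and 1 that fell.

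The labelled cell type was checked by its markers. All 12 adrenergic neuroblast markers were tested, among them PHOX2A, DBH, CHGA and MYCN, and their summed TPM was between 6962 and 7964 in DMSO and between 8116 and 8458 in NEN. Of these, 7 rose and 1 fell, where 13.5% of all tested genes rose and 16.5% fell. PHOX2A, a transcription factor of sympathetic neurons, rose by 0.80 ± 0.06, TH and DBH, enzymes of catecholamine synthesis, by 0.82 ± 0.12 and 0.41 ± 0.06, and DDC fell by 0.45 ± 0.05. After the length and GC correction with the longest transcript PHOX2A was at 0.54 and DBH at 0.27, both still past the threshold. Of 10 blood cell markers, 8 stayed under 1 TPM, of which CD3E, CD3D, MS4A1 and HBB were listed at 0 in every library, and PTPRC (CD45) reached at most 0.279 TPM. CD68, the only blood cell marker tested, rose from 8.37 ± 1.26 to 16.2 ± 1.3 TPM. CD14 and PTPRC, too low to be tested, were lower in every NEN library. Their means were 0.607 and 0.229 TPM in DMSO and 0.018 and 0.095 TPM in NEN. The 6 endothelial markers summed to at most 1.95 TPM and the 6 epithelial markers to at most 12.9 TPM in any library. The part of these markers in the antigen results was not tested.

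For each antigen, the genes with the most similar pattern were sought among the 8073 genes that averaged 10 TPM or more. The measure was the root mean square difference, over the 6 libraries, of the deviations from the DMSO mean on the log2(TPM + 1) scale. Nearest to GPC2 was CEBPB, a stress-responsive transcription factor, at a difference of 0.131, with 35.6 ± 5.9 TPM in DMSO and 93.7 ± 8.0 TPM in NEN. HIST3H2A and MEIS3 followed at 0.141 and 0.144. Nearest to NRCAM were P3H1, UBXN1 and JAKMIP2, at 0.028 to 0.039. Among those nearest to THY1 were MRPS7 and ARMC6, at 0.031 and 0.040, which went from 148.5 to 115.0 and from 68.5 to 52.5 TPM.

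The antigens with small or no change also had close matches, which this measure gives readily where changes are small. Nearest to DLK1 was GAPDH, a glycolytic enzyme, at 0.012, with 6303 ± 290 and 7108 ± 102 TPM. Among those nearest to L1CAM were CSNK1E and ZCCHC3, at 0.018 and 0.020, and nearest to NCAM1 were ADIPOR1, AGPAT1 and CLASP2, at 0.015 to 0.019. Nearest to CD276 were GCFC2, CSNK2B and E2F5, at 0.028 to 0.045. All 3 were highest of the DMSO libraries in replicate 1, as was CD276, which follows from choosing them by likeness to it. These are descriptions over 6 libraries in 2 groups.

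**Figure D5:**
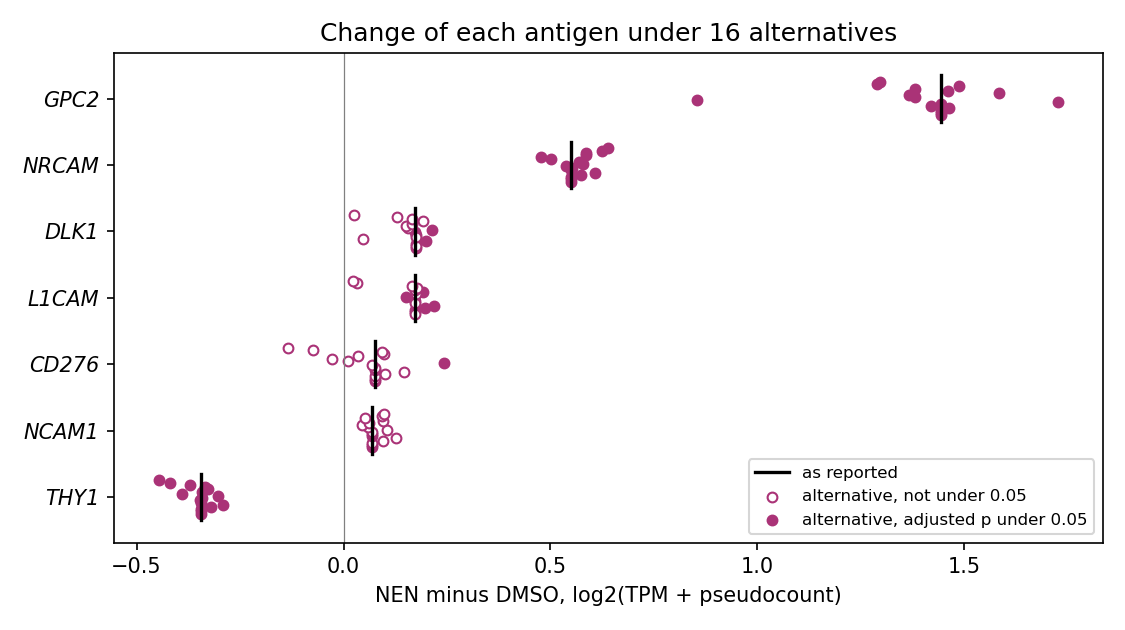
Change of each antigen with NEN (log2 of TPM plus the pseudocount) as reported (black bar) and under 16 alternatives (points, filled where the adjusted p is under 0.05). All points of GPC2, NRCAM and THY1 are filled, 5 of DLK1, 8 of L1CAM, 1 of CD276 and 0 of NCAM1.

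Under the 16 alternatives GPC2, NRCAM and THY1 passed the threshold each time, with changes between 0.855 and 1.73, between 0.476 and 0.640, and between -0.446 and -0.292. Their adjusted p-values reached at most 0.00976, 0.0131 and 0.0277 in limma. DLK1 passed in 5 alternatives and L1CAM in 8, always with a positive change. The number of antigens past the threshold was 3 of 7 wherever DLK1 and L1CAM were both lost, which includes the replicate block and leaving out DMSO replicate 2 or any 1 of the NEN replicates.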

How the data were processed

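RNA-seq libraries of SK-N-BE(2) cells, 3 given DMSO and 3 given 1 µM NEN, were grouped by the treatment in the labels. The deposited values are TPM for 35130 gene names (2 repeated, both symbols turned into spreadsheet dates and in no list), 1 column per library. The authors' tools were kallisto with hg19 per the submitters' processing notes; the sources used here do not give versions, annotation or strand. TPM keeps no counts, so no counting intervals are given.

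The 12576 genes averaging 1 TPM or more, all 7 antigens among them, were tested on log2(TPM + 1), with a pseudocount of 1, by limma 3.58.1 in R 4.3.3 (group alone, trend and robust settings, two-sided, Benjamini-Hochberg over all tested genes, threshold 0.05). Antigens and gene lists were chosen with earlier results of these data known. Of 229 list symbols, 225 were found as written and 1 by an older symbol, and 3 had no match. Beside the 7, up to 4 genes per list past the threshold with the smallest adjusted p were named, and the 3 genes of most similar pattern per antigen, of which 2 are not reported here. Other named genes were chosen after their values were seen. The test was checked on simulated data with 200 changed genes. They were drawn from genes with a DMSO mean above 2 on the log2(TPM + 1) scale, where GPC2 does not lie. It recovered 51.2% of changes of 1.5 times and 89.9% of changes of 2 times. False calls made up 4.73% and 5.3% of all calls. In the data 30.0% of tested genes passed, a larger share than was changed in the simulation, so these rates need not hold there. Changes under 1.5 times, such as those of DLK1, L1CAM and THY1, were not simulated.

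Alternatives were the replicate block, each library left out, no filter, a minimum of 5 TPM, median-ratio scaling, quantile normalization, plain limma settings and pseudocounts of 0.1 and 5. A loess correction (span 0.3, degree 1) for length and GC content, from the longest or the median coding transcript in GENCODE release 29 (89.9% of tested genes, all 7 antigens), was added after the data were seen. Figures used matplotlib 3.10.9 in Python 3.11.15.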

Additional observations from a re-analysis of the deposited data

How the results depend on the processing

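The number of antigens past the threshold, 5 as reported, was 3 with the replicate block, with plain limma settings and with the length and GC correction from either transcript, and lay between 3 and 6 when each library was left out. Over all genes, 3773 passed as reported, 2977 with the replicate block and between 2554 and 3455 with a library left out, and no alternative moved this count by over 1.5 times. No pairing by replicate number was seen in the values. Deviations from the group means of same-numbered libraries correlated at 0.012, -0.008 and -0.028, and not every library correlated best with its own number. Whether same-numbered cultures were handled together is not stated. The change of CD276, 0.08 as reported, was 0.243 without DMSO replicate 1 and turned to -0.028 without DMSO replicate 3 and to -0.073 and -0.135 after the length and GC correction with the longest and the median transcript. GPC1, 0.21 as reported, turned to -0.064 and -0.053 under the same corrections. The cause was not tested. Of the 43 other genes past the threshold followed through the alternatives, 28 passed under each alternative that gave them a value, and 0 changed direction. With 3 libraries per group and no counts, the precision of low genes such as GPC2 cannot be split into counting and replicate error.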
